A study of Mus musculus with 18 samples.

Results

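H3K9me3, a histone mark of silent chromatin, was compared genome-wide between mouse embryonic fibroblasts (MEFs) with and without KAP1. The WT cells carried Kap1 loxP/loxP alleles, and the other cells were Kap1 KO. Both were embryonic cells on a C57BL/6 background per the labels (C57BL/6J in the study's methods), and chromatin was precipitated with the same antibody (antiH3K9me3, Diagenode C15410056). The comparison covered 17070 peaks on the 19 autosomes, 14009 in WT and 3061 in Kap1 KO, out of 14425 and 4319 in the 2 whole lists. The end of chromosome 10 (chr10:110000001-129993255, mm9) was kept apart with its 1444 peaks. WT peaks that met a Kap1 KO peak by at least 1 bp are called kept and all other WT peaks WT-only, and Kap1 KO peaks that met none from WT are called KO-only. There was 1 library per genotype, so no test between genotypes could be made. Intervals beside shares are exact 95% Clopper-Pearson intervals and those beside medians are exact binomial order-statistic intervals. They cover counting error only. For its RNA measurements, the study describes the Kap1 KO MEFs as a stably growing clone kept for many passages beside the non-excised cells. Whether the chromatin came from the same clone is not given in the sources used here, so deletion of Kap1 and a property of 1 clone cannot be told apart.

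KAP1, encoded by Trim28, is a scaffold protein brought to DNA by KRAB zinc finger proteins. It recruits the methyltransferase SETDB1, which deposits H3K9me3, and the mark is in turn bound by HP1 proteins. The pathway is best known for silencing endogenous retroviruses and for keeping the methylated allele of imprinted control regions marked. Other methyltransferases, SUV39H1 and SUV39H2, deposit the mark in pericentromeric satellite chromatin.

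The peak lists do not check the deletion itself. Trim28 (chr7:13609501-13616384) carried no H3K9me3 peak in either genotype, and an H3K27ac peak lay at its start in both. H3K27ac, a mark of active starts and enhancers, was used to check the labelled cell type. In each genotype it lay within 1 kb of a start of 19 of 20 fibroblast genes. It also did so at 20 of 20 housekeeping genes in each, so this count alone does not name the cell type. Of 12 embryonic stem cell genes, 1 (Klf4) had such a peak in WT and 3 (Dppa5a, Esrrb and Klf4) had one in Kap1 KO. Of 12 hepatocyte genes, none had one in WT and 1 (Apob) had one in Kap1 KO.

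Sequence shared between peaks is shown first, because the share of peaks kept differed with it. Each 500 bp window around a peak's middle was searched for words of 24 letters, and words found in many windows of a class are printed with every CG in capitals. Of those frequent among kept peaks, 2 are given.
kept word A: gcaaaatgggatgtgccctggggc
kept word B: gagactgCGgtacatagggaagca
Kept word A, with 65 copies in mm9, lay in 16 kept windows on 4 chromosomes, in 1 WT-only window and in no KO-only window. Kept word B was more common in absolute number outside the class, with 67 WT-only and 40 KO-only windows beside 12 kept ones.

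Words frequent in WT-only windows and in KO-only windows are given next. Word 1 lay in the most windows of its class, and each later word in the most of the windows that held no earlier word. The counts given are over all windows.
WT-only word 1: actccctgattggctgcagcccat
WT-only word 3: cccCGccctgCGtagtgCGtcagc
KO-only word 1: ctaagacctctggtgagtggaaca
KO-only word 2: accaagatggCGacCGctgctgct
KO-only word 3: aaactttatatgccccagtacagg
WT-only word 1 occurs 6182 times in mm9. It lay in 312 WT-only windows on all 19 autosomes, in 9 KO-only windows and in 2 kept windows of each genotype. WT-only word 3 lay in 168 WT-only windows, in 6 KO-only windows and in no kept window. WT-only word 2 was a plain CA repeat with 1868616 copies, and its share was much the same in WT-only windows (1.4%) and KO-only windows (1.35%). Each of the 3 KO-only words was also found in WT-only windows. KO-only word 1 lay in 52 KO-only and 69 WT-only windows (1.95% and 0.506%), KO-only word 2 in 50 and 123 (1.87% and 0.902%), and KO-only word 3 in 49 and 30 (1.84% and 0.22%). KO-only word 2 has 6976 copies in mm9 and KO-only word 3 has 41783. No repeat annotation was used, so the words carry no family names. Since the words were picked for their frequency in a class, these counts are a description.

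To show what lay under the leading peaks, the 240 bases (mm9, plus strand) at the middle of the highest-scoring peak in or near a coding gene are given for each class, again with every CG in capitals.
kept, Muc19, chr15:91738760-91738999: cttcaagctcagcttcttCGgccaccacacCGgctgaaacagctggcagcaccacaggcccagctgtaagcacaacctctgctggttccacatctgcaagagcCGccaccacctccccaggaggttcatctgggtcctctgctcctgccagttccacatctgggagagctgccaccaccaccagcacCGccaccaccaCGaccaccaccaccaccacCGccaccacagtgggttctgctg
WT-only, Polrmt, chr10:79200813-79201052: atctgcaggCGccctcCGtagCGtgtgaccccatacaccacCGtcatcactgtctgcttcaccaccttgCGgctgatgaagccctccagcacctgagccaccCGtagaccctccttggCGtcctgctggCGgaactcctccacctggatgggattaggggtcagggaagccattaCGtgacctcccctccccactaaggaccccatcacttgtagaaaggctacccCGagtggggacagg
KO-only, C130026I21Rik, chr1:84989988-84990227: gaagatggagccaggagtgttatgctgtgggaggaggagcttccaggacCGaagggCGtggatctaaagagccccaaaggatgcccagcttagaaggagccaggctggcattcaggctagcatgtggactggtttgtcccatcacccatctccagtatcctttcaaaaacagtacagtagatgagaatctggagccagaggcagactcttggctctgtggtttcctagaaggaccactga
The Muc19 stretch held 6 CG and was 62.5% GC, the Polrmt stretch held 10 CG and was 61.3% GC, and the C130026I21Rik stretch held 2 CG and was 52.9% GC.

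Of the 14009 WT peaks, 377 were kept in Kap1 KO MEFs (2.69%, 2.43 to 2.97) and 13632 were not. Seen from the other side, 392 of 3061 Kap1 KO peaks were also in WT (12.8%, 11.6 to 14) and 2669 were KO-only. These shares moved with the peaks taken: with a score of at least 80 in both lists 23.6% of Kap1 KO peaks were also in WT, and with the 3061 highest-scoring WT peaks alone 5.46% were and 4.67% of those WT peaks were kept. WT held 4.58 times as many peaks as Kap1 KO and covered 4.64 times as many bases, 8.93 Mb against 1.93 Mb. The kept peaks overlapped closely where they met. The median number of shared bases was 481 bp (450 to 513), or 80.3% of the WT peak (75.7 to 84.1). In 239 of the 377 kept WT peaks the WT peak was the wider one, in 136 the Kap1 KO peak or peaks were, and 29 kept WT peaks met more than 1 Kap1 KO peak.

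The share kept rose with the authors' peak score, used here as a rank within a list. It was 1.31% (0.963 to 1.75) in the lowest of 4 equal groups of WT peaks by score, 2.23% and 2.71% in the middle groups, and 4.51% (3.85 to 5.25) in the highest. From the Kap1 KO side the lowest group shared 4.57% (3.20 to 6.30) of its peaks with WT and the highest 29.9% (26.7 to 33.3). Among the top 10% by score it was 43.0% (37.4 to 48.7) for Kap1 KO peaks and 6.57% (5.33 to 7.99) for WT peaks. A WT peak wider than 2 kb was kept in 37 of 240 cases (15.4%, 11.1 to 20.6), and one of up to 500 bp in 101 of 7080 (1.43%, 1.16 to 1.73). Score and width go together, so these are not separate results.

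For each window the median number of times that its words occur in mm9 was taken as its copy number, and in each of the 4 score groups the share kept was lowest over sequence with 1 copy. WT peaks over sequence with 1 copy were kept in 70 of 8260 cases (0.847%, 0.661 to 1.07). Those with 2 to 9 copies were kept in 140 of 1922 (7.28%, 6.16 to 8.54), and those with 10 copies or more in 167 of 3827 (4.36%, 3.74 to 5.06). In the highest group of WT scores the 3 shares were 1.46%, 10.5% and 8.92%. From the Kap1 KO side, 74 of 1563 peaks with 1 copy were also in WT (4.73%), against 144 of 615 (23.4%) and 174 of 883 (19.7%). How reads that fit several places were handled can move peaks over repeated sequence in both lists, and its part in these shares was not tested.

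**Figure D1:**
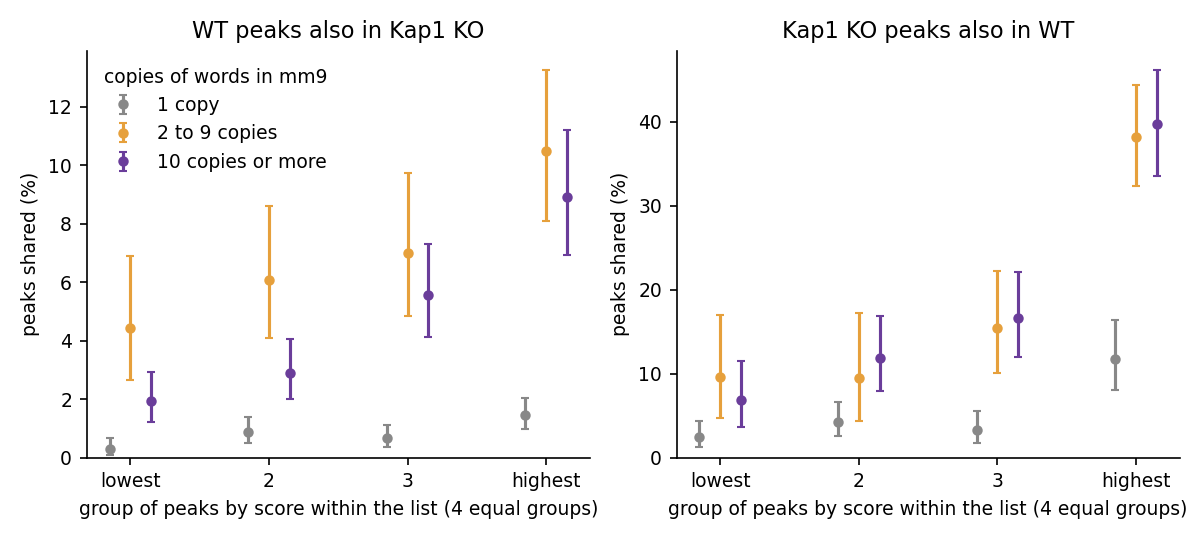
Percentage of WT peaks shared with Kap1 KO (left) and of Kap1 KO peaks shared with WT (right) on the autosomes, by score in 4 equal groups within the list and by the median copy number of the 24-letter words in the 500 bp window. Points are shares and bars exact 95% intervals for counting error; in every group the points for 1 copy lie below those for 2 to 9 copies and for 10 copies or more, from 0.305% in the lowest WT group to 1.46% in the highest.

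GC content, copy number and the ZFP57 letters differed between classes. Kept windows were the most GC-rich, with a median of 53.6% (52.2 to 55.2), followed by KO-only windows at 48.6% (48.2 to 48.8) and WT-only windows at 47.0% (46.8 to 47.0). The median over 4746963 consecutive 500 bp tiles of the autosomes was 41.8%. Windows with 10 copies or more made up 44.3% of kept (39.2 to 49.5), 26.8% of WT-only (26.1 to 27.6) and 26.6% of KO-only (24.9 to 28.3), beside 10.5% of 9493 sampled tiles. The letters TGCCGC, the core of the motif bound by the imprinting factor ZFP57, were searched on both strands. They lay in 10.1% of WT-only windows (9.59 to 10.6), in 8.75% of kept windows (6.10 to 12.1), in 4.20% of KO-only windows (3.47 to 5.03) and in 3.05% of all tiles. A match says only that the letters are there. CpG observed over expected had medians of 0.16 in kept, 0.18 in WT-only and 0.17 in KO-only windows, beside 0.16 in tiles.

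Within each list, kept peaks were wider and had higher scores than the others. The median width was 688 bp (631 to 733) for kept WT peaks, 494.5 bp (491 to 499) for WT-only peaks, 548.5 bp (509 to 599) for kept Kap1 KO peaks and 382 bp (375 to 389) for KO-only peaks. Of the kept WT peaks 9.81% were wider than 2 kb, of the WT-only peaks 1.49%, and of the KO-only peaks 3.18%. The median score was 107 for kept and 79.6 for WT-only peaks within the WT list, and 90.0 for kept and 59.2 for KO-only peaks within the Kap1 KO list. A score of 80 or more was reached by 49.8% of WT-only peaks and by 19% of KO-only peaks, so the KO-only class lay near the floor of its list.

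**Figure D2:**
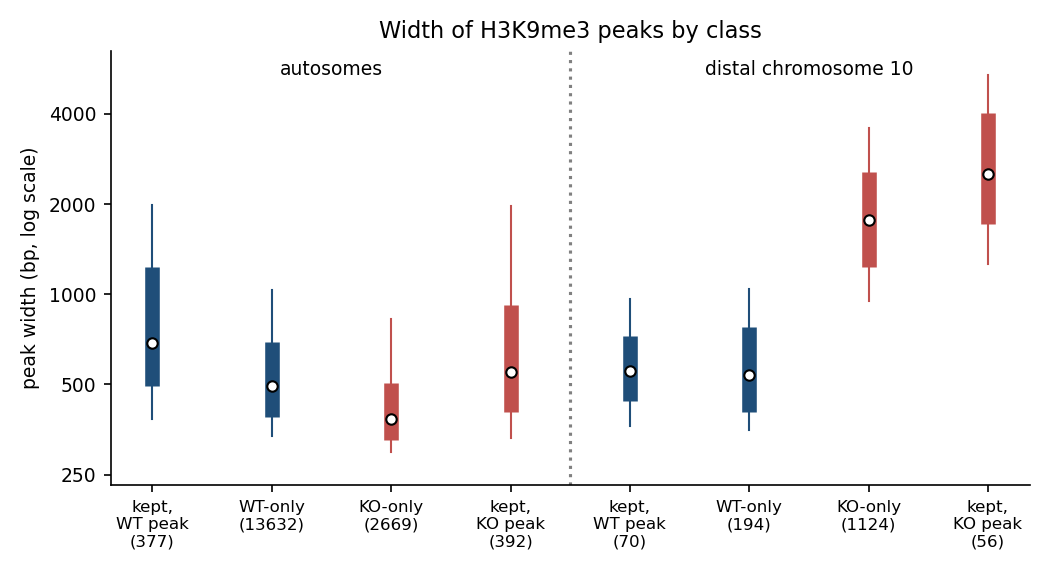
Width of H3K9me3 peaks in bp on a log axis, for kept, WT-only and KO-only peaks on the autosomes (left) and on distal chromosome 10 (right), with the number of peaks in brackets. White circles are medians, thick bars the quartiles and thin lines the range from the 10th to the 90th percentile; on distal chromosome 10 the Kap1 KO classes have medians of 1765.5 and 2521 bp, while the WT classes stay between 536 and 553 bp.

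Most peaks of every class lay outside genes. Of WT-only peaks 67.2% (66.4 to 67.9) had their middle between genes, 24.7% in an intron, 2.68% in an exon and 5.48% (5.10 to 5.88) within 1 kb of a transcript start. Of the autosomal bases 58.2%, 35.3%, 2.39% and 4.03% lie in these places. KO-only peaks were placed in introns more often than WT-only peaks, at 30.0% (28.3 to 31.8), and at starts in 5.36% of cases (4.53 to 6.28). With a score of at least 80 in both lists the shares at starts were 9.84% (7.50 to 12.6) for KO-only and 6.61% (6.03 to 7.22) for WT-only peaks. Over all scores, KO-only peaks were farther from transcript starts than WT-only peaks, with a median distance of 29647 bp (27946 to 31753) against 18071.5 bp (17620 to 18602). Kept peaks stood out at starts: 59 of 377 (15.6%, 12.1 to 19.7) lay within 1 kb of one. Put differently, 7.32% (5.62 to 9.34) of the 806 WT peaks at starts were kept, against 2.32% (2.02 to 2.64) of the 9371 between genes. Of the 59 kept peaks at starts, 36 were at a coding gene, 20 lay over sequence with 1 copy and 15 over sequence with 10 copies or more.

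**Figure D3:**
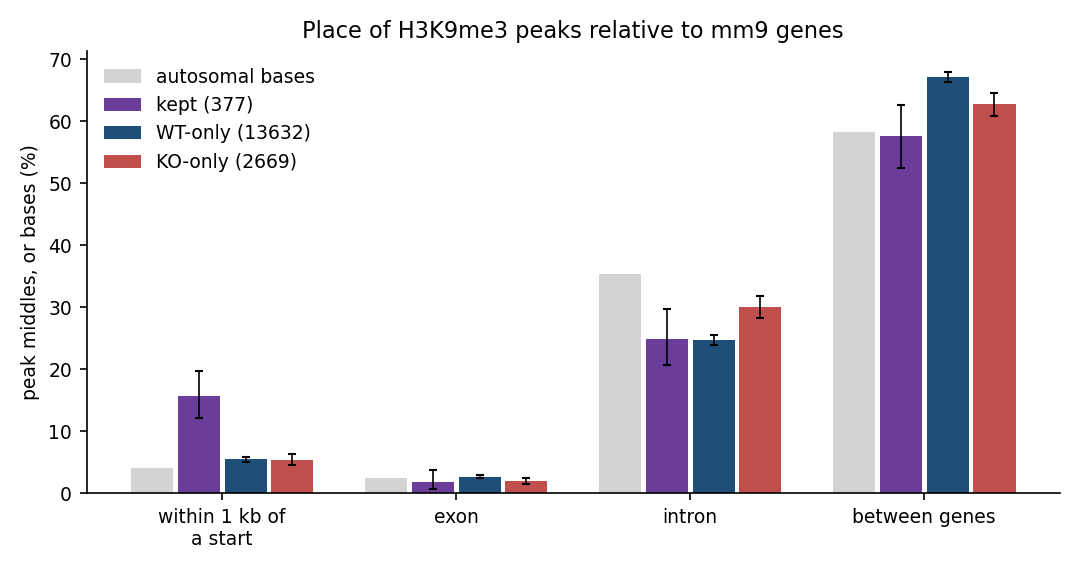
Share of peak middles of each class, in percent, within 1 kb of a transcript start, in exons, in introns and between genes, with the share of autosomal bases in the same place in grey. Bars start at 0 and error lines are exact 95% intervals for counting error; kept peaks reach 15.6% at starts, where WT-only and KO-only peaks are at 5.48% and 5.36% and the bases at 4.03%.

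Of the WT-only peaks in a coding gene or within 5 kb of its start, the highest score was at Polrmt, which encodes the mitochondrial RNA polymerase (chr10:79196868-79204998, 8131 bp, score 3222). Next came Ahnak2 (chr12:114013995-114017586, score 3100), which encodes a giant scaffold protein and carried 4 of the 12 leading peaks of this kind. The same value of 3100 was the highest WT score in chr17:80000001-81000000. Whether it is a ceiling of the score was not tested, so the order of the leading peaks is that of the deposited values only. Zfp316, a zinc finger gene, followed (chr5:144012997-144019796, 6800 bp, score 3087). The others were in Arhgap10 (chr8:79969463-79975986, score 2516), and Gm20388 (chr8:125698385-125704617, score 2252), a gene model of 4435 kb. Polrmt, Zfp316 and Arhgap10 had a KAP1 peak of Hepa 1.6 cells, a mouse hepatoma line, under the same peak, and Ahnak2 and Gm20388 did not. The Arhgap10 peak was the only 1 of the 5 that met an H3K27ac peak of Kap1 KO MEFs. By gene, Gm20388 held the most WT-only peaks (122). A peak within several coding genes was given to the first by name, so this long model can hold peaks of genes inside it, such as Cdh15. Dnahc8, a dynein heavy chain gene, held 27, Cdh23, a cadherin gene of the inner ear, held 23, and Cacna1a, which encodes a neuronal calcium channel subunit, held 19. Cdh23 and Cacna1a held no Kap1 KO peak. This count of peaks by gene, and those by gene further on, were chosen after the values had been seen.

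The leading kept peaks by the same gene rule were near equal in extent at Muc19 and unequal at others. At the start of Muc19, a gel-forming mucin gene, the WT peak spanned 4006 bp (chr15:91736877-91740882, rank 11 of its list) and the Kap1 KO peak 4123 bp (rank 2). In an intron of Rrp15, a ribosome biogenesis gene, the peaks spanned 2725 bp (chr1:188553629-188556353, rank 14) and 2200 bp (rank 8). At Dux, the tandem array of a homeobox gene of the early embryo, they spanned 7600 bp (chr10:57683923-57691522, rank 42) and 5122 bp (rank 4). In an exon of Tchh, which encodes the hair protein trichohyalin, the WT peak was the wider one, 2516 bp (chr3:93247327-93249842, rank 55) against 666 bp (rank 280). Near Vmn1r238, a vomeronasal receptor gene, 3298 bp in WT (rank 37) stood against 7186 bp in Kap1 KO (rank 1). The neighbour of Dux, Gm10807, held a further kept pair of 5804 and 3564 bp. Of the kept peaks at coding starts over sequence with 1 copy, the highest scores belonged to Herc3 (510), Phyhipl (489), M5C1000I18Rik (365), Sall1 (342) and Foxm1 (313). Sall1 encodes a developmental zinc finger factor and Foxm1 a cell cycle transcription factor.

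KO-only peaks differed in width and score with copy number. Of the 2669, 1489 (55.8%) lay over sequence with 1 copy, and these were narrow, with a median width of 362 bp (357 to 366) and a median score of 58.0. The 471 with 2 to 9 copies were wider, with a median of 529 bp (496 to 576), and 33.3% (29.1 to 37.8) of them had a score of 80 or more, against 13.9% (12.2 to 15.8) of those with 1 copy. The 709 with 10 copies or more (26.6%) were again narrow, with a median width of 389 bp (373 to 405), and 20.5% (17.5 to 23.6) of them had a score of 80 or more. Of the KO-only peaks in a coding gene or within 5 kb of its start, the highest score was in C130026I21Rik (chr1:84988272-84991944, score 558), the second in the neighbouring A530032D15Rik (chr1:85080936-85087867, 6932 bp, score 521), and the last of the 5 again in C130026I21Rik (chr1:85227481-85230640, score 381). Between these came 4930572O03Rik (chr5:15158275-15162663, score 434) and Cyp2c29, a cytochrome P450 gene of a tandem family (chr19:39336343-39339078, score 429). Their windows had median copy numbers of 4 to 15. C130026I21Rik held 46 KO-only peaks that covered 62.5 kb, beside 6 WT-only and 10 kept ones.

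Outside the repeated arrays, several long genes held many KO-only peaks, whose windows had a median of 1 copy in each gene named here. Zfp423, a zinc finger gene of adipocyte and neural development, held 36 in 298 kb, beside 2 WT-only peaks and 1 kept. Wwox, a long gene at a fragile site, held 29 KO-only peaks and 16 WT-only peaks, and none of them met. Accn1, which encodes an acid-sensing ion channel subunit, held 27 KO-only and 3 WT-only peaks, with 2 kept. Sdk2, an adhesion gene of neurons, held 22 and 5, and Dnahc8 held 21 and 27 with 2 kept. In these 5 genes the highest KO-only score was 146, and the median widths ran from 348 to 447 bp. Nkd1, a Wnt pathway inhibitor, and Cdh4, a cadherin gene, held 13 and 12 KO-only peaks and no WT peak.

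Peak density differed strongly between chromosomes, and not in the same order in the 2 genotypes. In WT, chromosome 8 had 15.5 peaks per Mb, chromosome 10 before its distal end 11.7, chromosome 17 11.6, chromosome 11 11.4 and chromosome 19 10.8. At the low end, chromosome 16 had 1.48, chromosome 7 1.44 and chromosome 18 0.892, so that the range was 17.4-fold (13.9 to 22.0). In Kap1 KO the highest values were 3.71 per Mb on chromosome 8, 3.47 on chromosome 15, 2.39 on chromosome 11 and 2.24 on chromosome 5, and the lowest 0.275 on chromosome 16. The ratio of WT to Kap1 KO peaks ran from 1.01 on chromosome 18 (81 and 80 peaks) to 32.1 on chromosome 10 before its distal end (1285 and 40), with a median of 4.44. It was 14.1 on chromosome 4, 13.6 on chromosome 13 and 10.9 on chromosome 19. H3K27ac was far more even, with 9.13 to 22.5 peaks per Mb in WT. The ratio of WT to Kap1 KO H3K27ac peaks ran from 0.669 on chromosome 18 to 1.21 on chromosome 10 before its distal end. The same chromosomes bounded the H3K9me3 ratio. On distal chromosome 10 the 2 marks parted, with a ratio of 1.21 for H3K27ac and 0.224 for H3K9me3. The part of chromosome copy number in these densities was not tested.

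**Figure D4:**
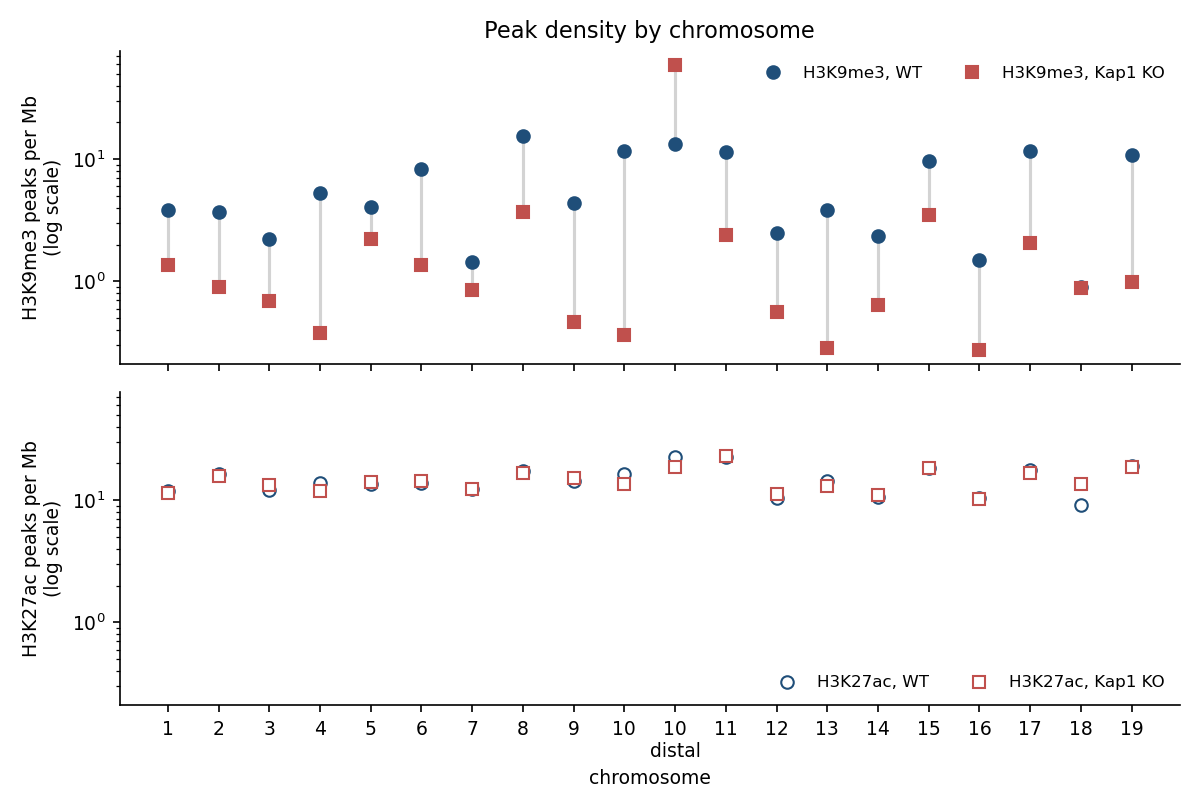
Peaks per Mb on each autosome, with distal chromosome 10 apart, for H3K9me3 (upper panel) and H3K27ac (lower panel) in WT (circles) and Kap1 KO MEFs (squares), on the same log axis. H3K9me3 spans 0.892 to 15.5 peaks per Mb in WT outside distal chromosome 10 and lies lower in Kap1 KO on each of these chromosomes, with almost no gap on chromosome 18; H3K27ac stays between 9.13 and 23.1 outside distal chromosome 10.

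Within chromosomes, Kap1 KO peaks were the more gathered. The densest 5% of 1 Mb bins (123 of 2462) held 59.6% (57.8 to 61.3) of Kap1 KO peaks and 27% (26.3 to 27.8) of WT peaks, and 883 and 1967 bins held any. With fewer peaks a larger share falls in the densest bins, so the 2 shares are not on equal terms. The 5 WT bins given as densest were chr10:81000001-82000000 with 97 WT peaks and 1 Kap1 KO peak, chr4:145000001-146000000 with 88 and 6, chr4:146000001-147000000 with 80 and 8, chr17:80000001-81000000 with 59 and 1, and chr8:74000001-75000000 with 53 and 8, which tied with chr8:86000001-87000000 (53 and 1). Zfp781, Gm3055 and AU041133 had the highest WT scores in the first bin, Gm13251, 2610036A22Rik and Rex2 in the second, and Gm13139, Gm13145 and Zfp600 in the third. The bin on chromosome 17 held no gene named Zfp and led with Cyp1b1, a cytochrome P450 gene, Fam82a1 and Cdkl4. In the last of them the leading genes were Nxnl1, which encodes a photoreceptor protein, Glt25d1, a collagen galactosyltransferase gene, and 1700030K09Rik.

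The densest Kap1 KO bins were others. They were chr5:95000001-96000000 with 84 Kap1 KO and 8 WT peaks, chr1:85000001-86000000 with 79 and 21, chr15:87000001-88000000 with 48 and 8, chr8:90000001-91000000 with 47 and 26, and chr1:87000001-88000000 with 45 and 21. In the first, 78.6% of the Kap1 KO windows had 10 copies or more, and on chromosomes 15 and 8 none had. The bin on chromosome 8 holds Zfp423, and chr1:87000001-88000000 holds Sp140, Sp110 and Sp100, which encode nuclear body proteins.

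Members of the gene lists are counted when a peak overlaps the gene or the 1 kb before its start. Where the highest peak of a member is placed within 1 kb of a start, any annotated transcript counts, of that gene or another. Of 31191 annotated autosomal genes outside distal chromosome 10, 8.73% had a WT peak and 1.89% a Kap1 KO peak. These are genes of every annotated type and of any length. The lists were not matched to them in length or type, and a longer gene has more room for a peak. The part of length and type in the shares of the lists was not tested. Imprinted genes had a WT peak in 18 of 40 cases (45.0%, 29.3 to 61.5), and 1 of them, Herc3, kept one. The highest scores were at Nnat (864), Cdh15 (758), Herc3 (510), Mest (474), and H13 with Mcts2, a retrogene in its intron (389). At 12 of the 18 the highest peak lay within 1 kb of a start, and at 12 a KAP1 peak of Hepa 1.6 cells lay under it. These are counts of genes and not of separate peaks, since H13 and Mcts2 share a peak, as do Gnas and Nespas. Of all WT peaks, of any score, 2029 of 14009 met such a KAP1 peak. Igf2, a growth factor gene, and Ube3a, a ubiquitin ligase gene, had a KO-only peak each (scores 51.2 and 53.3) and no WT peak. At Herc3 the 1705 bp WT peak, 13 bp from a start, overlapped a Kap1 KO peak of 441 bp (scores 510 and 78.2). Nap1l5, an imprinted gene of the same part of chromosome 6, had 2 WT peaks, and neither was kept. The higher of them was chr6:58856342-58857187 (score 193). Whether the kept Herc3 peak lies in an imprinted control region was not tested.

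Hox genes, which pattern the body axis, had a WT peak in 9 of 41 cases (22.0%, 10.6 to 37.6) and a Kap1 KO peak in none. The 9 were Hoxa13 (1385), Hoxc13 (662), Hoxa10 (507), Hoxc12 (233), Hoxd10 (212), Hoxd13 (180), Hoxa9 (151), Hoxd11 (115) and Hoxc11 (50.3), with the highest score in brackets. They belong to the posterior end of the clusters, and at all 9 the highest peak lay within 1 kb of a start. In a short gene the counting rule itself places most peaks near a start, so this does not show a preference for starts. The Hoxa13 peak (chr6:52208317-52212188, 3872 bp) was the only 1 of the 9 that met an H3K27ac peak of Kap1 KO MEFs, and those at Hoxa10 and Hoxc11 met one of WT MEFs.

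Germline genes had a WT peak in 10 of 35 cases (28.6%, 14.6 to 46.3). At 2 of the 10 the highest peak lay within 1 kb of a start. The highest scores were at Tdrd9 (323), Tdrd1 (191) and Mov10l1 (175), genes of the piRNA pathway, Hormad2 (183), a meiotic chromosome gene, and Gtsf1 (150), also of the piRNA pathway. Tdrd9 held 12 WT peaks, all WT-only. Dazl, an RNA-binding protein gene of germ cells, had 1 WT peak and 1 KO-only peak that did not overlap, and Piwil1 had a KO-only peak (score 60.7).

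Genes named Zfp had a WT peak in 81 of 362 cases (22.4%, 18.2 to 27) and a Kap1 KO peak in 4 (1.10%). The 5 highest scores were at Zfp316 (3087), Zfp777 (1909), Zfp90 (1585), Zfp697 (1013) and Zfp180 (995). Those with a Kap1 KO peak were Zfp423, Zfp488, Zfp612 and Zfp831, and at the last 3 no WT peak was listed. At 38 of the 81 a KAP1 peak of Hepa 1.6 cells lay under the highest WT peak, and at 12 that peak lay within 1 kb of a start. Of all WT peaks, of any score, 2029 of 14009 met such a KAP1 peak.

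The remaining lists are given last, beside the 8.73% of all genes with a WT peak. Olfactory receptor genes had a WT peak in 9 of 1183 cases (0.761%, 0.348 to 1.44) and a Kap1 KO peak in 2, with a kept pair at Olfr94 and a KO-only peak at Olfr1. Vomeronasal receptor genes had one in 4 of 319 (1.25%), with KO-only peaks at Vmn2r13 and Vmn2r31. Their highest WT scores were 389 at Olfr1396 and Olfr56, which share a peak, and 98.4 at Vmn2r60. Among 28 genes of the heterochromatin machinery 2 (7.14%, 0.877 to 23.5) had a WT peak. Chd4, a chromatin remodeller (176), and Trim24, a relative of KAP1 (110), had WT-only peaks. Of 25 clustered protocadherin genes, Pcdha11 had a WT-only peak (62.7) and Pcdhgc5 a KO-only peak (50.8). Of 12 embryonic stem cell genes 2 (16.7%, 2.09 to 48.4) had a WT peak, Sox2 (107) and Lin28a (64.6), both WT-only at a start. None of 20 fibroblast, 12 hepatocyte or 18 housekeeping genes had a peak in either genotype.

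The other marks gave a readout that the classes did not use. KAP1 of Hepa 1.6 cells lay under 14.6% (14 to 15.2) of WT-only peaks, under 10.6% (7.69 to 14.2) of kept WT peaks and under 1.05% (0.698 to 1.51) of KO-only peaks. Of the 67 Kap1 KO peaks with such a KAP1 peak, 39 were also in WT (58.2%, 45.5 to 70.1). H3K27ac of WT MEFs met 1.36% (1.17 to 1.57) of WT-only peaks and H3K27ac of Kap1 KO MEFs met 4.82% (4.47 to 5.19), that is 185 and 657 peaks. For KO-only peaks the order was the other way round, with 26 peaks (0.974%, 0.637 to 1.42) in WT and 10 (0.375%, 0.18 to 0.688) in Kap1 KO. These 2 intervals overlapped. At kept peaks the 2 shares were 2.12% (0.92 to 4.14) and 3.45% (1.85 to 5.82), whose intervals overlapped. The H3K27ac lists held nearly equal numbers of peaks on these chromosomes, 34952 in WT and 34947 in Kap1 KO. An overlap of 1 bp also depends on the bases that a list covers, which were not compared here.

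Distal chromosome 10 differed from the rest of the autosomes in the direction of the change and in the form of the peaks. Kap1 KO had 1180 peaks there, 59.0 per Mb, against 1.25 per Mb on the other autosomal sequence. WT had 264 peaks, 13.2 per Mb, against 5.71. The Kap1 KO peaks covered 12.8% of the region and the WT peaks 0.842%, a 15.2-fold difference. KO-only peaks were broad, with a median width of 1765.5 bp (1696 to 1839), and 41.5% were wider than 2 kb. They lay over sequence with few copies, since 5.96% (4.65 to 7.51) of their windows had 10 copies or more. Between genes lay 77.7% (75.1 to 80.1) of them, beside 77.3% of the WT-only peaks of the region and 63.3% of its bases. Of the 264 WT peaks 70 (26.5%, 21.3 to 32.3) met a Kap1 KO peak.

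**Figure D5:**
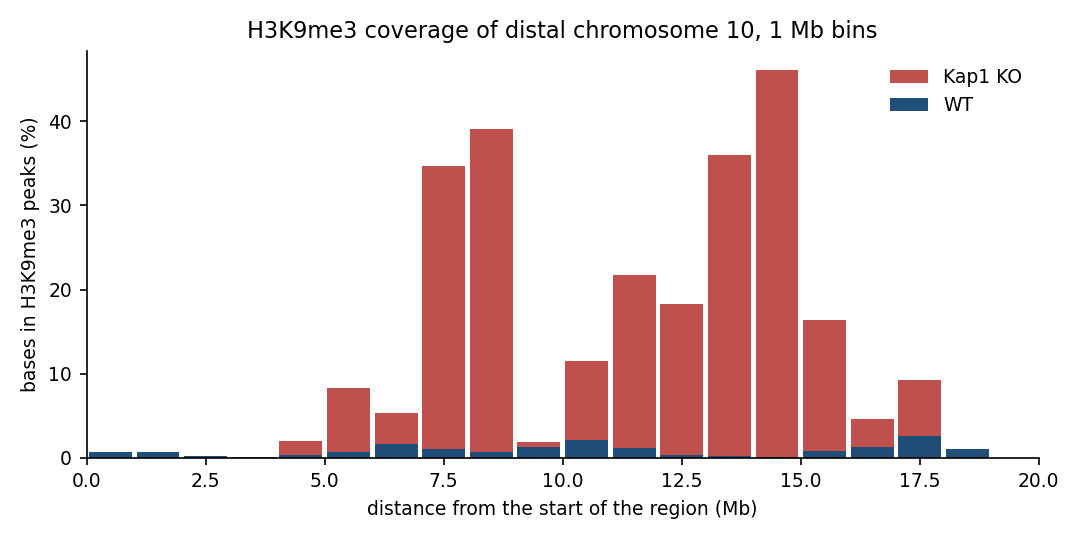
Percentage of bases inside H3K9me3 peaks in each 1 Mb bin of distal chromosome 10, by distance from the start of the region, for Kap1 KO and WT MEFs. Bars start at 0 and the WT bars are drawn in front of the Kap1 KO bars; Kap1 KO reaches 46.1% in its densest bin and 0 in the first 4 bins and the last 2, while WT stays at or below 2.62%.

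Coverage in Kap1 KO was not even along the region. It was highest at chr10:124000001-125000000 (255 peaks, 46.1% of bases), chr10:118000001-119000000 (164 peaks, 39.1%) and chr10:123000001-124000000 (196 peaks, 36.0%). In between, chr10:119000001-120000000 held 8 peaks (1.84%). The first 4 bins and the last 2 held no Kap1 KO peak, and 25 and 16 WT peaks. H3K27ac gave 450 peaks in WT and 371 in Kap1 KO over the region. Their median widths were 1998.5 and 2899 bp, so these counts do not give the bases covered. Covered bases moved either way between bins. In the densest H3K9me3 bin H3K27ac gave 5 and 2 peaks, which covered 0.73% and 0.389% of bases. At chr10:126000001-127000000 it gave 46 and 36 peaks, which covered 13.5% and 23.4%. The 5 highest-scoring KO-only peaks by gene were in Slc16a7, a monocarboxylate transporter gene (chr10:124682756-124688848, score 510), Fam19a2, a secreted peptide gene (376 and 342), Trhde, a peptidase gene, at its start (330), and Rdh19, a retinol dehydrogenase gene (308). Peaks shared with WT lay in Rdh9, of the same tandem family (5353 bp in Kap1 KO against 581 bp in WT), and in Tmem5 (4338 against 1729 bp).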

How the data were processed

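Chromatin immunoprecipitation with sequencing of MEFs was read from the deposited peak lists, 1 library per genotype and mark. The authors mapped reads to mm9 with Bowtie2 (2.2.1, per the submitters' processing notes) and ran MACS (1.4) with total input of the same cells as control. Each peak has a deposited score whose unit is not stated, with no read counts, so read depth is unknown and scores were ranked only within a list. The study's text gives a score cutoff of 80, yet both lists reach down to 50.0. Overlaps were computed in Python 3.11.15 and checked with bedtools 2.31.1, which gave the same 377 and 392 shared peaks, and on simulated intervals. Genes came from GENCODE on NCBIM37, the assembly of mm9. A peak's middle was assigned in the order start (within 1 kb), exon, intron, between genes. Words of 24 letters were counted over the whole genome on both strands, and 1 of those frequent among kept peaks is not reported here. In each class the 5 highest-scoring peaks in a coding gene or within 5 kb of its start are named, and of each gene list the members with kept or KO-only peaks and up to 5 with the highest WT score. Of the list entries 8 matched no annotated autosomal gene outside distal chromosome 10. The SETDB1 list was not used. The classes, gene lists and region were chosen with earlier results of these data known.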

Additional observations from a re-analysis of the deposited data

Results flagged for a closer look

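Chromosome X was in no comparison of the report. It held 150 WT and 78 Kap1 KO H3K9me3 peaks, and is given because it lay outside the main measurement. Of the WT peaks on X, 15 (10.0%, exact interval 5.71 to 16) met a Kap1 KO peak, and 15 of the Kap1 KO peaks (19%, 11.2 to 29.7) met a WT peak. In peaks per Mb, X had 0.90 in WT and 0.468 in Kap1 KO.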

How the results depend on the processing

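Of 96 alternatives, 45 stayed inside the interval of the value reported and 51 left it. None changed which class was widest, or which was most often at starts. The share of WT peaks kept was 3.5% with a gap of up to 1 kb allowed, 2.30% with a score of at least 80 in both lists, 4.67% with equal numbers of peaks, 3.13% with distal chromosome 10, and 0.847% over windows with 1 copy, an alternative chosen after seeing the data. The share of Kap1 KO peaks also in WT was 16.1%, 23.6%, 5.46%, 10.6% and 4.73% in that order, and 14.7% for the upper 50% of each list. At a score of at least 80 the median width was 911.5 bp for kept, 682 for WT-only and 667 for KO-only peaks, with the gap 627.5 bp for kept, and with equal numbers 1134 bp for kept and 970 for WT-only peaks. Shares at starts were 28.4%, 18.9% and 15.6% (kept, WT-only, KO-only) within 5 kb and 9.55%, 4.11% and 3.56% at coding genes. They were 6.61% (WT-only) and 9.84% (KO-only) at a score of at least 80, and 7.81% (WT-only) with equal numbers. WT-only peaks in exons were 3.55% at a score of at least 80 and 4.25% with equal numbers, in introns 22.8% with equal numbers, and between genes 65.2% and 65.1%. KO-only peaks between genes were 56.9% at a score of at least 80. In 1000 bp windows 10 copies or more were found in 37.4% of kept and 24.3% of WT-only windows. With a gap of up to 1 kb, WT H3K27ac met 4.24%, 3.74% and 1.46% of kept, WT-only and KO-only peaks. Kap1 KO H3K27ac met 8.02% of WT-only and 0.824% of KO-only peaks, and KAP1 met 20.9% and 1.76%. The range over chromosomes was 23.7-fold in WT and 22.5-fold in Kap1 KO by covered bases, and 33.7-fold and 23.3-fold at a score of at least 80. In 500 kb bins the densest 5% held 31% of WT and 67.4% of Kap1 KO peaks. At a score of at least 80 the share of genes with a WT peak was 5.57% of all genes, 17.1% of Zfp genes, 0.338% of olfactory receptor genes and 0% of clustered protocadherin genes. The causes were not tested. Median scores, shares by score rank and distal chromosome 10 had no alternative. No paired analysis was possible because there was 1 library per genotype. Lower-case sequence was not analysed, since the genome used carries no masking. With peak lists alone, a site under the caller's threshold cannot be told from one without the mark, and unequal depth of the 2 libraries could move every count.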
